A study of Caenorhabditis elegans with 24 samples.

Results

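The F-box B genes are the Caenorhabditis elegans genes whose WormBase symbol starts with fbxb-. The deposited small RNA table lists 113 of them, and the 43 described here have at least 10 normalized counts in at least 2 of the 24 libraries. Of all 46726 features listed, 8869 pass the same rule. The 43 comprise 40 protein-coding genes and 3 pseudogenes, fbxb-4, fbxb-86 and fbxb-94. A normalized count is the number of reads on a gene after scaling by a factor of the library, and the reads are those antisense to the annotated gene.

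F-box proteins carry a short F-box motif that binds the Skp1-related adaptor of SCF ubiquitin ligases, and a further domain that holds the protein to be ubiquitinated. In C. elegans these genes form large families with many tandem copies, and F-box B proteins pair the F-box with a type 2 F-box-associated domain. Small interfering RNAs (siRNAs) of the germline lie antisense to their target transcript and are copied from it by RNA-dependent RNA polymerases. MEG-3 and MEG-4 have long disordered stretches, and embryos without them assemble germ granules poorly. HRDE-1 is a nuclear Argonaute that binds siRNAs in the germline and carries them to the next generation.

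Small RNAs were sequenced from whole young adults kept on OP50 bacteria at 20 °C, in 12 groups of 2 libraries each. The groups were wild type (strain N2), meg-3 meg-4 mutants (strain JH3225), hrde-1; meg-3 meg-4 mutants (strain YY1512), and wild-type animals descended from an outcross of the meg-3 meg-4 mutants. The descendants were sampled in each generation from F3 to F7 and then at F10, F15, F20 and F25. The labels name no alleles and call the libraries of a group biological replicates, and no separate cultures are described, so a p-value here measures the spread between these libraries. A descendant group differs from wild type by ancestry and not by labelled genotype.

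Recovered reads per library ranged from 392785 to 3420345. In 2 shallow libraries, F4 replicate 2 and F10 replicate 1, a single read is worth 4.99 and 5.47 normalized counts, so weakly covered members move in large steps there. In the wild-type libraries meg-3 had antisense reads of 42.8 and 64.2 normalized counts and meg-4 of 55.0 and 74.2. The meg-3 meg-4 libraries had 7.74 and 7.86 for meg-3, and 12.2 and 3.93 for meg-4. Reads antisense to hrde-1 were at 629 and 599.9 in hrde-1; meg-3 meg-4, and lay between 1115 and 1982 in the 22 other libraries. The values are small RNAs and not messenger RNA, so the labelled tissue cannot be checked against expressed marker genes. Among lists of marker genes, siRNAs of 4 of 16 sperm genes, 2 of 12 oocyte genes, 1 of 10 germline genes and 2 of 9 somatic genes were called lower in meg-3 meg-4, and only vit-3, a yolk protein gene of the soma list, was called higher (log2 change 1.12), where 17.6% of all features were called lower and 8.28% higher. The part of these genes in the results on F-box B genes was not tested.

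The siRNAs of the family were spread very unevenly over its members. In wild type fbxb-97 stood at 1784 and 1969 normalized counts, fbxb-14 at 1573 and 1603, fbxb-100 at 1335 and 1469, and fbxb-85 at 470.0 and 500.4. These 4 genes led the family, and 7 further members, fbxb-24, fbxb-37, fbxb-4, fbxb-45, fbxb-94, fbxb-91 and fbxb-22, also had a mean of at least 50 over all libraries. Per kilobase of exon, the wild-type level was 2485 normalized counts for fbxb-14, 1656 for fbxb-97, 1435 for fbxb-100 and 377 for fbxb-85, so fbxb-14, the shortest of these, came first on that scale. In 13 members every library reached 10 normalized counts. No member reached 10 normalized counts in libraries of 1 group only. However, fbxb-25 did so only in wild-type replicate 2 and F25 replicate 1, and fbxb-86 only in the wild-type libraries and F25 replicate 1. Neither would pass the rule without the wild-type libraries, so their calls lower than wild type are given as a description. fbxb-25 would not pass without F25 replicate 1 either, so its rise over the generations is also given as a description.

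At the threshold, fbxb-25 and fbxb-79 reached 10 normalized counts in exactly 2 libraries, with means of 5.40 and 5.15. Just outside it, fbxb-74, fbxb-54, fbxb-62 and fbxb-29 did so in 1 library, with means of 4.49, 3.39, 3.15 and 4.67. The 70 members outside the rule never exceeded 15.0 normalized counts, and 2 of them had no read in any library. In wild type their levels summed to 192 and 187 normalized counts, and the sum was 81.9 and 79.5 in meg-3 meg-4, 76.1 and 61.6 at F3, 192 and 163 at F25, and 132 and 134 in hrde-1; meg-3 meg-4. The weakly covered remainder of the family thus stood below wild type in both mutants and at F3.

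Chromosome II holds 63 of the 113 listed genes and 27 of the 43. Chromosome I holds 6 of the 43, III holds 4, IV and V hold 3 each, and none of the 3 listed on X passed the rule. By the positions of Ensembl release 115 (WBcel235), 28 members stand in 7 runs of at least 3 with gaps of at most 50000 bases. The longest run, chrII:1647908-1759452, holds 9 members among 15 listed family genes. They are fbxb-21, fbxb-20, fbxb-16, fbxb-15, fbxb-17, fbxb-26, fbxb-25, fbxb-11 and fbxb-53. The sources used here do not name the authors' build. How reads that match several near-identical copies were assigned is also not given, so the split of reads between close relatives is uncertain. Some members share annotated bases with another gene. All 639 bases of fbxb-14 lie in W08F4.12 on the same strand, fbxb-53 shares 429 bases with F36H5.10, fbxb-20 and fbxb-16 share 8, and fbxb-24 lies opposite faah-4 over 919 bases. Reads antisense to fbxb-24 in that stretch are in the sense of faah-4.

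Most F-box B genes had fewer siRNAs in meg-3 meg-4 mutants than in wild type. In meg-3 meg-4 30 of the 43 fell and 1 rose past an adjusted p of 0.05 (limma on log2(normalized count + 5), Benjamini-Hochberg over all 8869 features), where 17.6% of all features were called lower and 8.28% higher. The median log2 change was -1.28 over the family and -0.01 over all features. The added 5 shrinks the log2 changes of weakly covered genes. The animals were sampled whole, so fewer cells that make an siRNA and less siRNA per cell cannot be told apart. The median member stood at 26.7% of its wild-type mean. Both mutant libraries were below both wild-type libraries in 37 of the 43 members, and in 36.7% of all features.

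**Figure D1:**
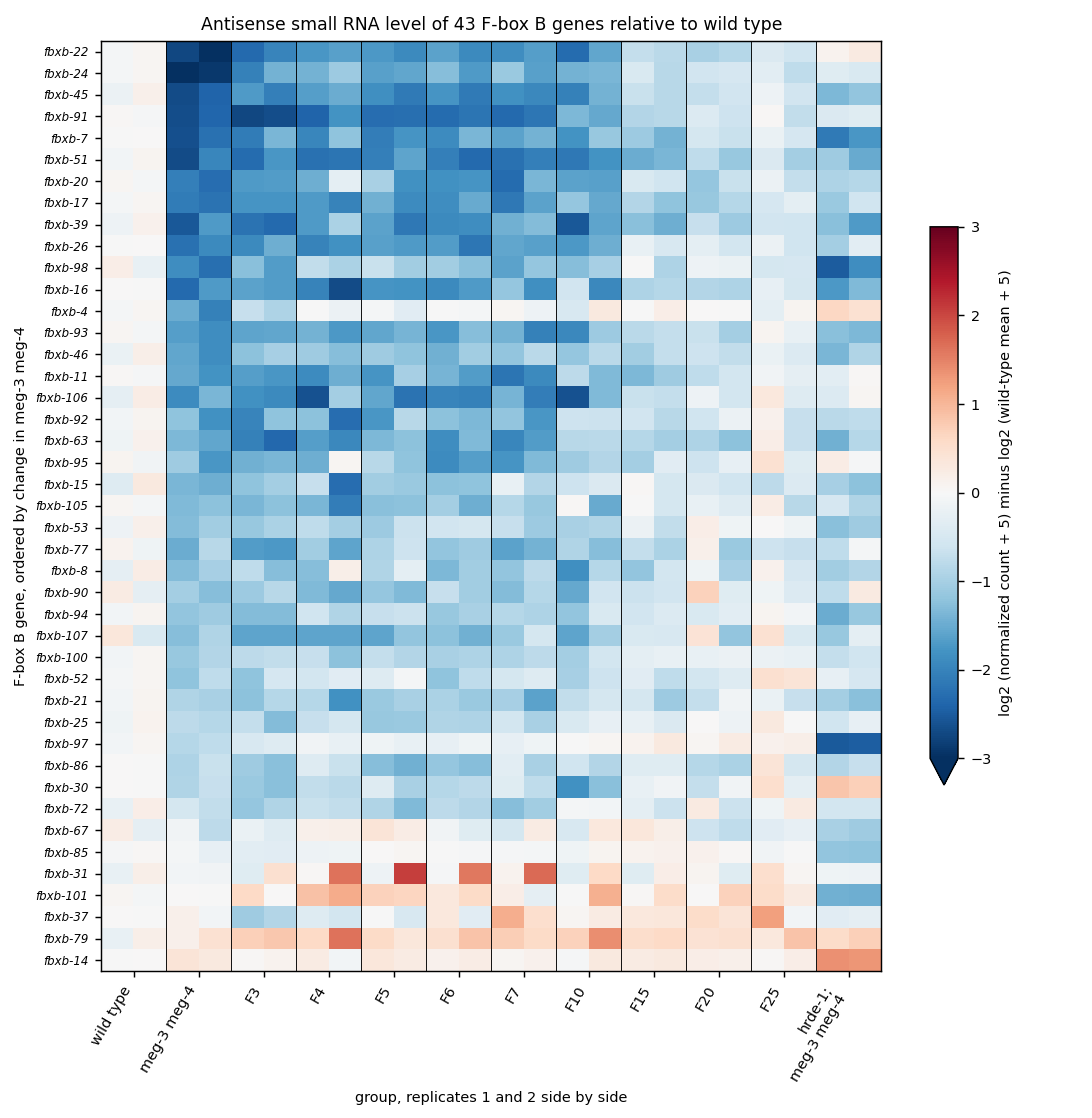
Level of the 43 F-box B genes (rows, ordered by their change in meg-3 meg-4) in each of the 24 libraries (columns, the 2 replicates of a group side by side), as log2(normalized count + 5) minus that of the wild-type mean. Colours stop at -3. Blue cells fill the columns of meg-3 meg-4 and of F3 to F10 in most rows, fade from F15 to F25, and are pale or absent in the lowest rows, among them fbxb-14 and fbxb-79.

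The largest loss was that of fbxb-22 on chromosome III (WBGene00013230), whose wild-type libraries held 175 and 189 normalized counts, while the meg-3 meg-4 libraries held 23.2 and 14.7 (log2 change -2.98, SE 0.22, limma adjusted p = 4.14e-09). Its neighbour fbxb-24 (WBGene00013234) held 302 and 329 in wild type and 33.2 and 38.3 in the mutant (-2.98, adjusted p = 2.83e-09). Both mutant libraries lay far below both wild-type libraries for each gene.

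On chromosome II, fbxb-45 fell from 193 and 242 to 29.9 and 37.3 normalized counts (log2 change -2.53, limma adjusted p = 2.23e-08). For fbxb-91 the wild-type libraries held 207 and 196 and the mutant libraries 27.7 and 34.4 (-2.52, adjusted p = 3.04e-08). The fifth was fbxb-7 on chromosome V, at 87.4 and 88.2 against 9.96 and 14.7 (-2.43, adjusted p = 4.62e-06). In none of the 3 did the groups overlap.

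The next 3 genes were weaker at the start. In wild type fbxb-51 held 38.2 and 43.8 normalized counts against 2.21 and 6.87 (log2 change -2.31, limma adjusted p = 1.31e-05), fbxb-20 held 45.7 and 41.5 against 6.64 and 4.91 (-2.18, adjusted p = 0.000165), and fbxb-17 held 52.1 and 57.2 against 8.85 and 7.86 (-2.16, adjusted p = 4.60e-06). Their mutant levels rest on 2 to 8 reads per library. Both wild-type libraries were again above both mutant libraries.

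The other members called lower were fbxb-39, fbxb-26, fbxb-98, fbxb-16, fbxb-4, fbxb-93, fbxb-46, fbxb-11, fbxb-106, fbxb-92, fbxb-63, fbxb-95, fbxb-15, fbxb-105, fbxb-53, fbxb-77, fbxb-90, fbxb-94, fbxb-100, fbxb-52, fbxb-25 and fbxb-97. Their log2 changes ran from -2.12 for fbxb-39 to -0.80 for fbxb-97. The abundant fbxb-97 kept 57.1% of its wild-type mean and fbxb-100 kept 49.5%, while fbxb-39 kept 8.14%. That last value rests on 0 and 4 reads in the meg-3 meg-4 libraries. The summed level of the 43 genes fell less than the median gene. Wild type held 7339 and 7860.4 normalized counts in sum, while meg-3 meg-4 held 4779 and 4782, or 62.9% of wild type. With each of the 4 libraries left out in turn, 20 to 24 members were called lower. The calls of fbxb-52, fbxb-15, fbxb-25, fbxb-53, fbxb-95, fbxb-106, fbxb-105, fbxb-92, fbxb-90 and fbxb-77 were lost in at least 1 of these cases. Since fbxb-25 passed the rule only with the help of a wild-type library, its call is given as a description.

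The 1 gene called higher was fbxb-14, at 2066 and 1961 normalized counts against 1573 and 1603 in wild type (log2 change 0.34, limma adjusted p = 0.0316). That call was lost without any 1 of the 4 libraries, wild type or mutant. The change was -0.017 when all libraries were scaled to equal totals and -0.18 after quantile normalization, so its direction depends on the scaling. The 12 members not called were fbxb-8 (-1.13), fbxb-107 (-1.04), fbxb-21 (-0.93), fbxb-86 (-0.80), fbxb-30 (-0.79), fbxb-72 (-0.62), fbxb-67 (-0.43), fbxb-85 (-0.16), fbxb-31 (-0.08), fbxb-101 (-0.01), fbxb-37 (0.04) and fbxb-79 (0.33). Most of these were weakly covered, with the exception of fbxb-85 at 465 and 407 and fbxb-37 at 134 and 113.

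**Figure D2:**
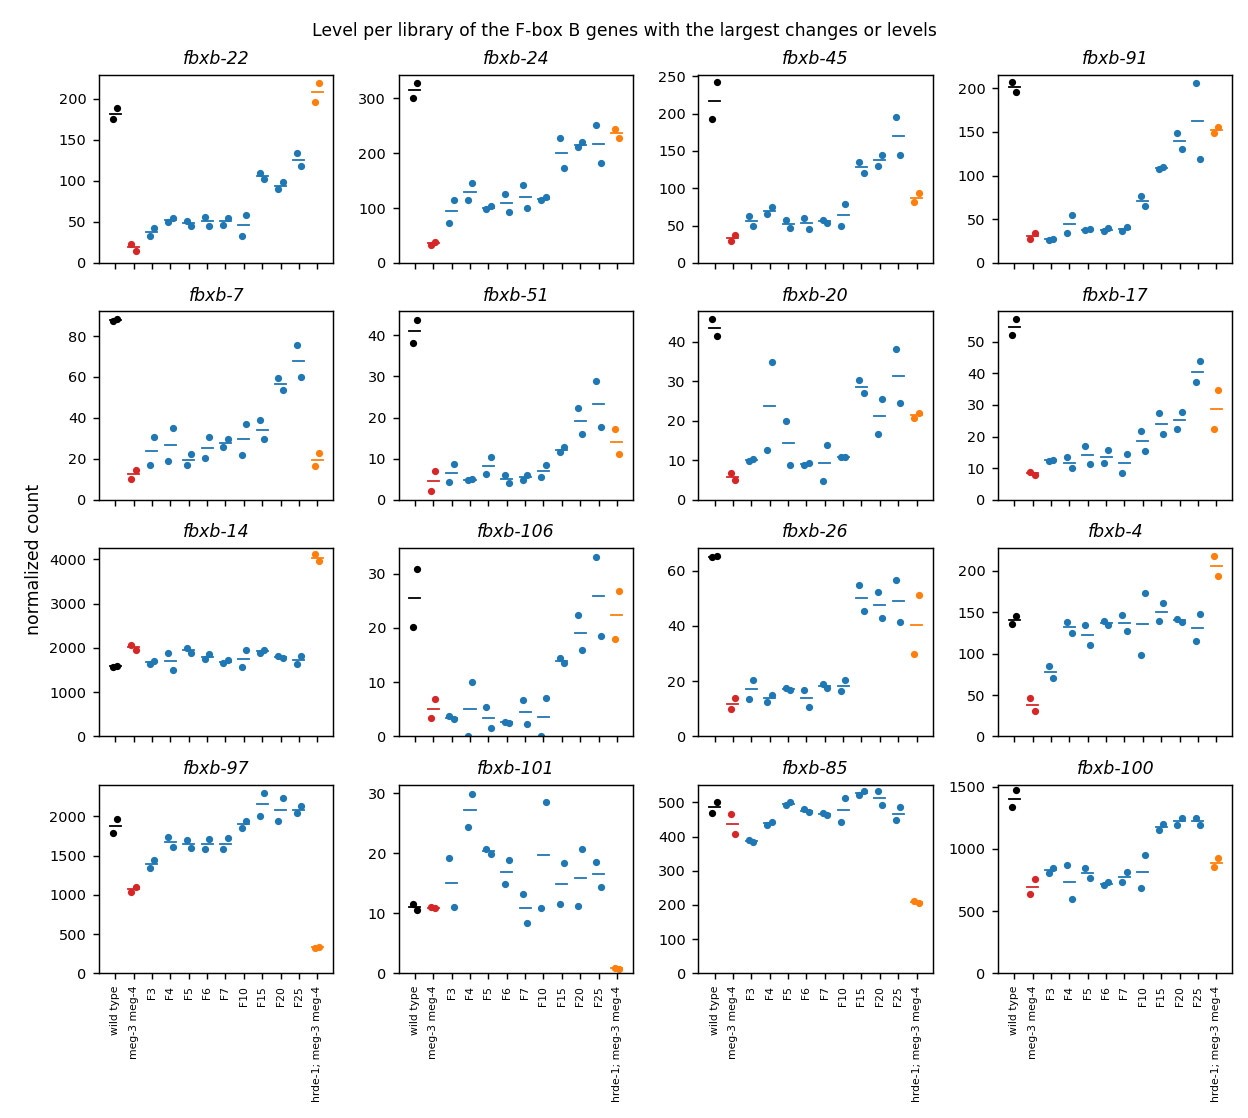
Normalized counts per library (points) and group means (lines) of 16 F-box B genes, namely those with the largest losses, gains, slopes or levels. Black is wild type, red meg-3 meg-4, blue the descendants F3 to F25 and orange hrde-1; meg-3 meg-4. Each panel has its own axis from 0. fbxb-22 stands at 175 and 189 in wild type and at 23.2 and 14.7 in meg-3 meg-4, and climbs back over the generations, while fbxb-14 stays near its wild-type level and reaches 4124 in the hrde-1 mutant.

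Members that stand side by side were mostly called together. Of the 28 members in runs, 24 were called lower in meg-3 meg-4, as were 6 of the 15 outside runs, where 17.6% of all features were. In the run of 9 on chromosome II 8 were. The same runs hold 16 other genes that passed the rule, of which 7 were called lower and none higher (limma). These 7 were fbxa-184 (log2 change -3.56), F58E1.13 (-3.21), ceh-82 (-2.95), C52E2.3 (-2.53), btb-11 (-2.05), btb-12 (-2.04) and F36H5.8 (-1.61). In the run of 9, the other genes not called ranged from fbxc-26 (-0.98) to ceh-83 (0.22). The median log2 change of its 13 other genes was -0.55.

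Related families gave their own counts in the same comparison, to be read against the 17.6% of all features called lower and the 8.28% called higher. For F-box A genes, which pair the F-box with another domain, 40 of 85 were called lower and 8 higher, with a median log2 change of -0.77. Their largest changes went both ways, with fbxa-125 at 4.39, fbxa-184 at -3.56 and fbxa-193 at 3.08. For F-box C genes 12 of 21 were called lower and 2 higher, with a median of -1.17, led by fbxc-40 (-2.62). Single F-box proteins outside these families gave 2 of 9 lower, fbxl-1 (-1.83) and sel-10 (-0.61). The MATH and BTB genes, adaptors of the CUL-3 ligase, gave 10 of 52 lower and 15 higher, with a median of 0.20.

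The partners of F-box proteins were also counted, against the same 17.6% and 8.28%. Of 18 genes for Skp1-related adaptors, cullins and RING subunits, 3 were called lower, skr-19 (log2 change -1.45), skr-21 (-0.997) and skr-18 (-0.66), and skr-3 was called higher (1.14). Their median change was 0.09. Of 12 genes for neddylation and the COP9 signalosome, which switch these ligases on and off, cand-1 was called lower (-0.80) and dcn-1 higher (0.47).

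In the descendants, whose labelled genotype is wild type, the F-box B genes stayed low for many generations. At F3 35 of the 43 were called lower than wild type and none higher, where 13.5% of all features were called lower and 4.1% higher. The 0 higher calls of limma compare with 1 without adjustment of p, 1 by edgeR and 0 by DESeq2. Without wild-type replicate 2 the count lower was 20, without F3 replicate 1 it was 23 and without F3 replicate 2 it was 22. The course over the generations was not particular to F-box B genes. Their median log2 change from wild type was -1.30 at F3, -0.96 at F10 and -0.20 at F25. For F-box C genes it was -0.98, -0.72 and -0.16. For F-box A genes it was -0.27 at F3 and already -0.04 at F4.

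The count called lower was 25 at F4 (15.2% of all features), 27 at F5 (13.6%), 27 at F6 (12.4%), 25 at F7 (12.6%) and 23 at F10 (14.8%). It was 9 at F15 (5.06%), 1 at F20 (1.42%) and 0 at F25 (0.417%). All these comparisons share the wild-type libraries. The adjustment sets a different cut in p for each generation, so these counts do not compare equal changes. Members with lower values and an unadjusted p under 0.05 numbered 16 at F15, 15 at F20 and 3 at F25. The share of all features at that unadjusted cut is not given here, so these counts are not a result about the family. At F25 neither edgeR nor DESeq2 called any lower. Both libraries lay below both of wild type in 26 members at F20 (30.7% of all features) and 16 at F25 (26.9%). Called higher were fbxb-79 and fbxb-101 at F4 (6.43% of all features) and fbxb-79 at F10 (6.44%). No member was called higher by limma at F5 (5.71% of all features), F6 (3.99%), F7 (4.54%), F15 (2.69%), F20 (0.981%) or F25 (0.631%). Without adjustment of p, 1 member each was higher at F5, F7 and F15 and 0 at F6, F20 and F25. DESeq2 called 1 at F5, edgeR 1 each at F6 and F7, and neither called any other in these 6 generations. Without wild-type replicate 2 the count lower fell to 15 at F5 and to 14 at F10, and at F15 it was 0 or 1 without any single library of wild type or F15. At F20 the call was lost without any of the 4 libraries. Against the mean of the 9 descendant groups, wild type was higher in 27 members and lower in 1, where 15.2% and 6.28% of all features were called. The count of 27 was smaller without wild-type replicate 1 or without replicate 2. The 1 was fbxb-79 (log2 change of the descendants from wild type 0.71, limma adjusted p = 0.0495). It passed the rule only through descendant libraries, so this call is given as a description.

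**Figure D3:**
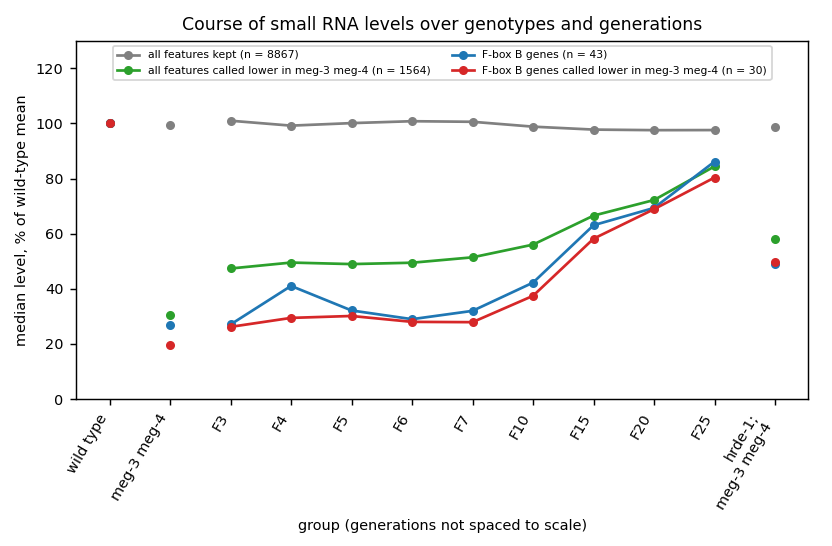
Median level of each set of genes, as percent of the gene's wild-type mean, in the 12 groups (points, with a line over the descendant generations). The F-box B genes lie near 30% from F3 to F7 apart from 41.0% at F4, pass 60% at F15 and reach 86.2% at F25, while the median of all features stays close to 100%.

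The median member stood at 27.1% of its wild-type mean at F3, 41.0% at F4, 32.1% at F5, 29.0% at F6, 32.0% at F7, 42.2% at F10, 63.1% at F15, 69.3% at F20 and 86.2% at F25. For the 30 members called lower in meg-3 meg-4, the median went from 19.6% in the mutant to 26.2% at F3, 37.5% at F10, 58.2% at F15 and 80.4% at F25. For all 1564 features called lower in the mutant, it went from 30.5% in the mutant to 47.4% at F3, 56.0% at F10, 66.6% at F15 and 84.4% at F25. The number of members with at least 50% of the wild-type mean was 9 at F3, 14 at F7, 18 at F10, 32 at F15, 36 at F20 and 43 at F25. Of 8867 features, 7669 reached that mark at F3, 7637 at F10, 8225 at F15 and 8671 at F25. Nearly all features thus reached it at F25, so the 43 there are not a result about the family. Among the members, the gap between F10 and F15 was the widest between neighbouring sampled generations, though these also lie further apart than the earlier ones.

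The step from the mutant to F3 was small for most members. In F3 against meg-3 meg-4, 4 were called higher and 1 lower, where 5.54% and 2.93% of all features were. fbxb-24 went from 33.2 and 38.3 normalized counts in the mutant to 73.0 and 114 at F3 (log2 change 1.25, limma adjusted p = 0.000423). The pseudogene fbxb-4 went from 46.5 and 30.4 to 84.7 and 71.1 (0.95, adjusted p = 0.00545), fbxb-22 from 23.2 and 14.7 to 32.2 and 42.6 (0.83, adjusted p = 0.0184), and fbxb-97 from 1041 and 1101 to 1339.8 and 1439 (0.37, adjusted p = 0.0210). The gene called lower was fbxb-37, which held 134 and 113 in the mutant and 54.4 and 63.2 at F3 (-1.01, adjusted p = 0.0375). Only the call of fbxb-24 was kept whichever of the 4 libraries was left out.

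A slope of log2 level on generation number was fitted over the 18 descendant libraries, with no library of wild type or mutant. It was positive and called for 33 of the 43 members and negative and called for none, where 13.8% and 7.51% of all features were. The 33 include fbxb-25, which passed the rule only with the help of F25 replicate 1, so its rise is given as a description. Falling members numbered 0 in edgeR and in DESeq2 as well, and 0 had an unadjusted p under 0.05. Generations may descend from one another, which the test does not take into account, and its p-values could then be too small. Leaving out 1 library at a time gave 27 to 35 rising members, and without F25 replicate 1 the calls of fbxb-30, fbxb-52, fbxb-21, fbxb-20, fbxb-95 and fbxb-37 were lost.

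The steepest slope was that of fbxb-91, at 0.108 log2 units per generation (SE 0.01, limma adjusted p = 1.55e-08). Its libraries held 26.0 and 27.6 normalized counts at F3, 36.1 and 41.2 at F7, 76.5 and 65.6 at F10, 108 and 110.3 at F15, 149 and 130 at F20 and 207 and 119 at F25. It stayed close to the mutant level up to F7 and climbed after that, and its F25 libraries differed from each other more than those of any earlier generation.

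For fbxb-106 the slope was 0.095 (limma adjusted p = 6.63e-05), from 3.71 and 3.16 normalized counts at F3 to 14.4 and 13.6 at F15 and 33.0 and 18.6 at F25, against 20.3 and 30.9 in wild type. Levels from F3 to F10 rest on 0 to 7 reads per library. For fbxb-26 the slope was 0.080 (adjusted p = 5.88e-06). It held 13.6 and 20.5 at F3, 16.4 and 20.3 at F10, and 54.7 and 45.6 at F15, against 64.8 and 65.4 in wild type, so most of its rise lay between F10 and F15. For fbxb-45 the slope was 0.077 (adjusted p = 8.48e-07), with 63.1 and 49.0 at F3, 49.2 and 78.8 at F10, 135 and 121 at F15 and 195 and 145 at F25.

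fbxb-22 was the member called lower in the most generations, 8 of the 9. It held 32.2 and 42.6 normalized counts at F3, 50.3 and 54.9 at F4, 46.5 and 54.2 at F7, 32.8 and 58.5 at F10, 109 and 102 at F15, 89.4 and 98.1 at F20 and 133 and 117 at F25. Every descendant library was below both wild-type libraries. At F20 the log2 change was -0.92 (limma adjusted p = 0.0278). The 8 members called lower in each generation to F15 and not after were fbxb-11, fbxb-17, fbxb-39, fbxb-45, fbxb-46, fbxb-51, fbxb-7 and fbxb-91. Of these fbxb-51 was the next to lowest at F15, at 29.6% of its wild-type mean (11.5 and 12.8 against 38.2 and 43.8), after fbxb-39, at 26.5%.

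Another 7 members were called lower in each generation to F10 and not after, namely fbxb-100, fbxb-106, fbxb-16, fbxb-24, fbxb-26, fbxb-93 and fbxb-94. The abundant fbxb-100 held 808 and 844 normalized counts at F3, 735 and 816 at F7, 683 and 949 at F10, 1150 and 1199 at F15 and 1247 and 1192 at F25. Both wild-type libraries, at 1335 and 1469, were above all of these. fbxb-24 held 142 and 99.3 at F7, 115 and 119 at F10, 227 and 173 at F15 and 251 and 183 at F25.

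**Figure D4:**
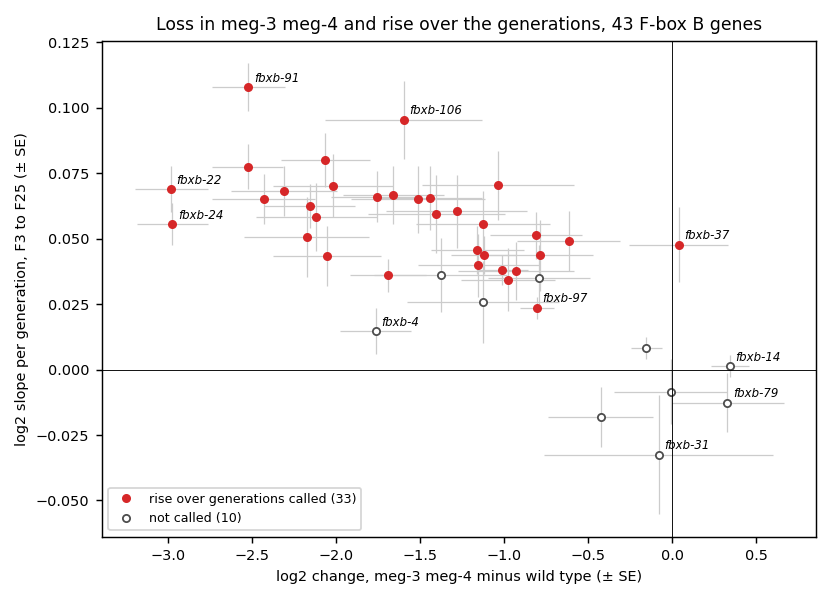
Change of each of the 43 F-box B genes in meg-3 meg-4 (x axis, log2) against its slope over the descendant generations (y axis, log2 per generation), with standard errors. Filled points are the 33 genes whose rise was called. Genes far to the left mostly have steep slopes, and fbxb-4 lies apart, with a large loss and a shallow slope.

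Loss in the mutant and rise over the generations went together within the family. Of the 30 members called lower in meg-3 meg-4, 28 also had a called rise, which is 93.3% of the lower and 84.8% of the 33 rising members. Over all features 901 did, which is 57.6% of the 1564 lower and 73.6% of the 1224 rising. The comparison with wild type and the slope use no common library. fbxb-25 is among the 28. It passed the rule only through wild-type replicate 2 and F25 replicate 1, so it is counted as a description. Across the 43 genes, the loss and the slope had a Pearson r of -0.72 and a Spearman rho of -0.70. This is a description across genes that share libraries and, in part, sequence.

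Some members did not follow this course. The pseudogene fbxb-4, at 135 and 145 normalized counts in wild type, was at 84.7 and 71.1 at F3 and at 138 and 125 at F4, so its libraries met those of wild type 1 generation after F3. It was called lower at F3 only, and its slope was not called (adjusted p = 0.252). fbxb-97 was also called lower at F3 only, with 1339.8 and 1439 at F3 and 1744 and 1607 at F4 against 1784 and 1969 in wild type. Its slope was called (0.024, limma adjusted p = 0.000235), and it held 2047 and 2131 at F25. fbxb-85 was called lower at F3 only, at 391 and 384 against 470.0 and 500.4 in wild type (log2 change -0.32, limma adjusted p = 0.0192), a call lost without any single library of the 4. It lay between 384 and 535 over all descendant libraries.

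fbxb-37 was not called in the mutant and was low at F3, at 54.4 and 63.2 normalized counts against 122 and 118 in wild type (log2 change -0.97, limma adjusted p = 0.0267). It then held 260 and 172 at F7 and 286 and 113 at F25, so replicate 1 stood well above replicate 2 in these groups. The calls at F3 were lost without any single library. fbxb-31 was at 15.0, 22.3, 14.3 and 16.0 in replicate 2 of F4, F5, F6 and F7, and between 0.767 and 1.90 in replicate 1. It was at 0.579 and 2.34 in wild type, so its passing the rule rests on 4 libraries that carry the same replicate number. At F4 the value of 15.0 stands for 3 reads.

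fbxb-79 was at 0.579 and 2.34 normalized counts in wild type and between 3.10 and 15.0 in all descendant libraries. Its calls at F4 (log2 change 1.12, limma adjusted p = 0.0221) and F10 (1.06, adjusted p = 0.0315) rest on the libraries that brought it under the rule, F4 replicate 2 and F10 replicate 2, so they are given as a description. The first was lost without F4 replicate 2 or wild-type replicate 1, and the second without F10 replicate 2 or either wild-type library. fbxb-101 was called at F4 (24.4 and 29.9 against 11.6 and 10.5), a call lost without any single library. fbxb-67 and fbxb-14 were called in no generation. fbxb-14 ranged from 1497 to 2009 over the descendants.

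Several weakly covered members were called lower in fewer generations. fbxb-21, fbxb-63 and fbxb-92 were called in each generation from F3 to F7 and not after. fbxb-105 and fbxb-107 were called in each from F3 to F5 and not after. The calls of most others had gaps. fbxb-20, fbxb-53 and fbxb-77 were called in 5 of the 9 generations and fbxb-98 in 4. fbxb-25, fbxb-52, fbxb-72, fbxb-86 and fbxb-95 were called in 3, fbxb-15, fbxb-30 and fbxb-90 in 2, and fbxb-8 at F10 only. The calls of fbxb-25 and fbxb-86 are given as a description, since neither passed the rule without wild-type libraries. Many of these weak calls hang on single libraries. Among others, those of fbxb-21 at F3, F5 and F6, fbxb-105 at F3 and F5 and fbxb-90 at F5 were lost without any 1 library. fbxb-8 at F10 rests on 0 and 4 reads, and its call was lost in 3 of 4 cases. By contrast, fbxb-20 at F3, F6, F7 and F10 and fbxb-63 at F3, F4, F6 and F7 kept their calls in every case. fbxb-107 had no read in either library of F3 or F4, against 13.9 and 5.84 normalized counts in wild type. At F3 a count of 0 allows up to 1.86 and 2.37 normalized counts (3 reads, a 95% limit that covers counting error only).

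With hrde-1 mutated as well, several members stood nearer to wild type than in meg-3 meg-4, and others stood lower still. In hrde-1; meg-3 meg-4 against meg-3 meg-4, 14 members were called higher and 3 lower, where 10.6% and 8.63% of all features were. The median log2 change between the mutants was 0.50 for F-box B, 0.56 for F-box C and -0.03 for F-box A genes. The median F-box B member stood at 49.1% of its wild-type mean. Against wild type 18 were called lower and 1 higher (12.4% and 5.83% of all features). The summed level was 6944 and 6965 normalized counts, or 91.5% of wild type. Of these sums fbxb-14 alone made up 4124 and 3962, against 1573 and 1603 in wild type, so the sum does not describe the typical member.

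**Figure D5:**
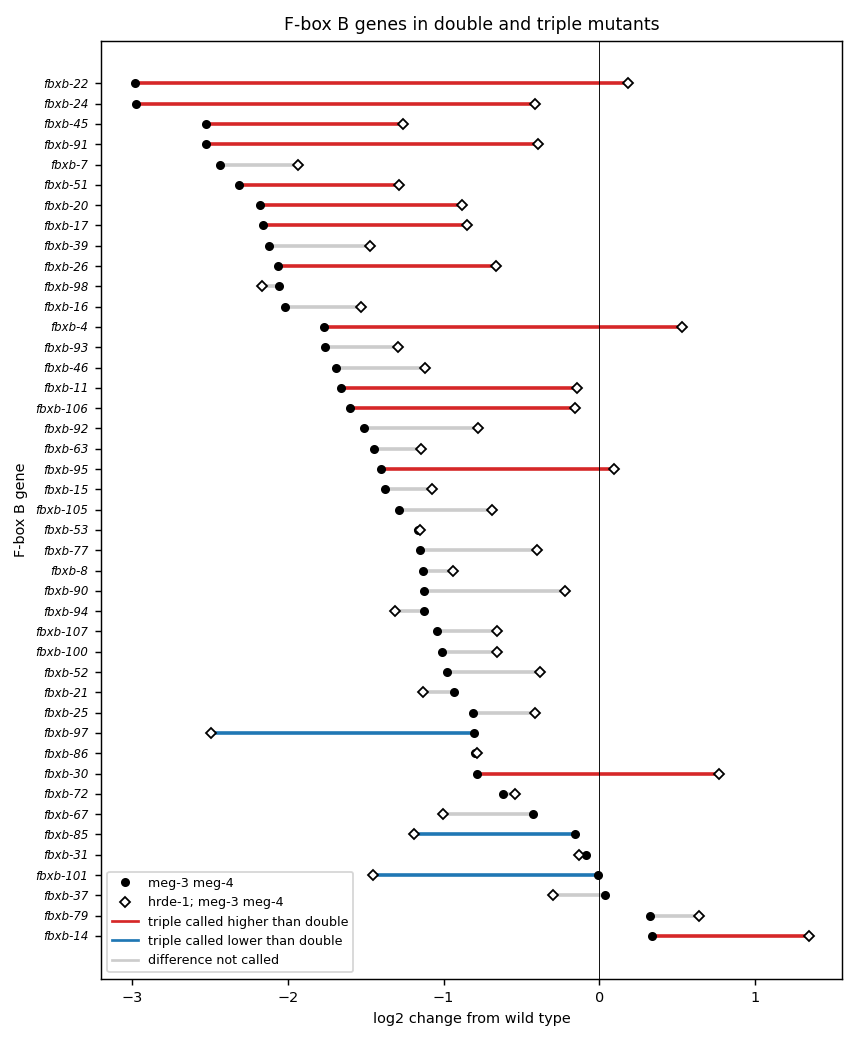
Log2 change from wild type of each of the 43 F-box B genes in meg-3 meg-4 (filled circles) and hrde-1; meg-3 meg-4 (open diamonds). Lines join the values of a gene, red where the hrde-1; meg-3 meg-4 level was called higher and blue where it was called lower. The red lines are mostly among the genes with the largest losses, and blue lines mark fbxb-97, fbxb-85 and fbxb-101. The loss and the call between the mutants share the meg-3 meg-4 libraries, so a low value there adds to both.

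fbxb-22 held 196 and 219 normalized counts in hrde-1; meg-3 meg-4, above the 175 and 189 of wild type, and 23.2 and 14.7 in meg-3 meg-4 (log2 change between the mutants 3.17, SE 0.22, limma adjusted p = 1.26e-09). fbxb-24 held 245 and 227 against 33.2 and 38.3 (2.57, adjusted p = 1.67e-08). fbxb-4 held 218 and 193 against 46.5 and 30.4 (2.30, adjusted p = 7.80e-08). For these genes the mutants did not overlap, and fbxb-22 and fbxb-4 passed both wild-type libraries without being called against wild type (adjusted p = 0.656 and 0.0940).

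The others called higher between the mutants were fbxb-91 (log2 change 2.13), fbxb-30 (1.56), fbxb-11 (1.52), fbxb-95 (1.503), fbxb-106 (1.44), fbxb-26 (1.40), fbxb-17 (1.31), fbxb-20 (1.30), fbxb-45 (1.27), fbxb-51 (1.02) and fbxb-14 (1.004). fbxb-91 reached 149 and 155 normalized counts, or 75.5% of wild type, while fbxb-45 reached 81.9 and 93.0, or 40.2%. With each library left out in turn 11 or 12 were called higher, and the calls of fbxb-51, fbxb-20, fbxb-95 and fbxb-106 were lost in at least 1 case.

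fbxb-14 was the only member called higher than wild type. It held 4124 and 3962 normalized counts, against 1573 and 1603 in wild type and 2066 and 1961 in meg-3 meg-4 (log2 change from wild type 1.35, limma adjusted p = 1.72e-08). No descendant library came near that level. Since fbxb-14 lies within W08F4.12 on the same strand, reads of the pair may not be separable.

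fbxb-97 held 321 and 336 normalized counts, against 1041 and 1101 in meg-3 meg-4 and 1784 and 1969 in wild type (log2 change between the mutants -1.69, SE 0.10, limma adjusted p = 1.22e-10). fbxb-101 held 0.900 and 0.788, a single read in each library, against 11.1 and 10.8 (-1.45, adjusted p = 0.00377). fbxb-85 held 213 and 207 against 465 and 407 (-1.04, adjusted p = 4.69e-08). These 3 genes lay below every other library of the series in both libraries of this mutant. The members called lower than wild type here also included fbxb-98, fbxb-7, fbxb-16, fbxb-39, fbxb-94, fbxb-93, fbxb-51, fbxb-45, fbxb-53, fbxb-63, fbxb-21, fbxb-46, fbxb-67, fbxb-17 and fbxb-100, and the count was 12 to 15 with 1 library left out.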

How the data were processed

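Small RNAs of whole young adults were measured in 24 libraries, 2 in each of 12 groups taken from the labels. The authors trimmed, aligned, counted and normalized the reads with cutadapt, Bowtie, featureCounts and DESeq2, per the submitters' processing notes; the sources used here do not state versions, build, annotation or strand setting. The deposited signal is 1 normalized count per feature and library. All 386038 values above 0 were whole reads within 0.01 after division by the library's step, so reads could be recovered. In 26 of 28 pairs of a microRNA gene and a non-coding feature on the other strand, the latter was higher, so the values are reads antisense to the annotated gene. Of 46726 features, 46364 matched Ensembl release 115 (WBcel235), which gave symbols and positions, and 9 family pseudogenes took their symbol from RefSeq by identical position in the same assembly.

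Features with at least 10 in at least 2 libraries entered 1 limma 3.58.1 fit (R 4.3.3) of the 12 groups, with 12 residual degrees of freedom, on log2(normalized count + 5) and with a trend of variance on intensity. Tests were two-sided, with Benjamini-Hochberg adjustment over 8869 features at 0.05, and past that a feature is called. There were 15 comparisons. edgeR 4.0.16 and DESeq2 1.42.0 on the recovered reads, other pseudocounts, filters and scalings, and left-out libraries were the alternatives. The script was tested on simulated data. Members with values in every library of a comparison are those called with the 8 largest losses and 3 largest gains in meg-3 meg-4, the 4 steepest slopes, the 3 largest changes each way between the mutants, and the 3 highest means. The others were chosen after their values were seen. The family, lists and tests were chosen with earlier results of these data known. Depth per library is given with the results; intervals cover counting error only.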

Additional observations from a re-analysis of the deposited data

Results flagged for a closer look

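The level of F-box B genes differed between descendant generations, by a test of the difference itself. Over the 18 descendant libraries, the change of log2 level per generation passed the threshold in 33 of the 43 genes (limma, Benjamini-Hochberg over all features, 0.05), rising in each, where 13.8% of all features rose. The 33 include fbxb-25, which passed the rule only with the help of F25 replicate 1, so its rise is a description. The count ranged from 27 to 35 with 1 library left out. The libraries of successive generations may not be independent.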

How the results depend on the processing

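Among single genes in meg-3 meg-4 against wild type, the mutants against each other and the slope, 1653 values under other settings, left-out libraries included, kept their direction and side of the threshold, 92 fell short of it, 20 newly passed it and 9 reversed. Directions reversed in meg-3 meg-4 for fbxb-14 (-0.017 with equal totals, -0.18 after quantile normalization) and for 3 genes not called, fbxb-101 (0.22 after quantile normalization, -0.057 to 0.039 without single libraries), fbxb-37 (-0.308 with equal totals, -0.081 to 0.155 without single libraries) and fbxb-31 (0.071 after quantile normalization, -0.279 to 0.12 without single libraries). The median of all features in meg-3 meg-4 was -0.33 with equal totals and 0.13 after quantile normalization, against -0.01 as reported.

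With a mean of at least 50 only 11 members were tested. Lower calls were then 8 in meg-3 meg-4, 5 in hrde-1; meg-3 meg-4, 10 at F3, 6 from F4 to F10 and for the mean of the descendants, and 3 at F15, with 6 higher between the mutants, 8 rising slopes and 0 higher at F4, F10 and for the mean. Lower calls at F10 were 14 with DESeq2. At F15 they were 5 with pseudocount 1 and 4 with no filter. At F20 they were 6 with pseudocount 20, 0 with no filter, 7 with equal totals, 5 with edgeR and 6 without the 2 shallow libraries. Lower calls in F3 against meg-3 meg-4 were 0 with pseudocount 20, no filter or equal totals, and 2 without the shallow libraries. With edgeR and DESeq2, lower calls were 34 and 28 in meg-3 meg-4, 23 and 17 at F4, 13 and 8 at F15, and 34 and 30 for the mean. Lower calls moved in other comparisons too. The changed counts of higher calls given next were all between 0 and 3. In hrde-1; meg-3 meg-4 they were 2 with pseudocount 20, DESeq2 or no shallow libraries, and 3 with edgeR, quantile normalization or only the libraries compared. In meg-3 meg-4 they were 0 with no filter, equal totals or quantile normalization. At F4 they were 1 with pseudocount 1 or equal totals and 0 with no filter, DESeq2 or no shallow libraries. At F3 and F6 they were 1 with edgeR, and at F7 also. At F10 they were 0 with pseudocount 20 or no filter. Without the shallow libraries they were 1 at F3, F5 and F15, 3 at F10 and 2 for the mean. At F5 DESeq2 gave 1. For the mean they were 0 with pseudocount 20, no filter, equal totals or DESeq2. The cause of these shifts was not tested, apart from the number of genes tested.

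As a share of the library total, the summed level was 49.1% of wild type in meg-3 meg-4, 59.95% at F3, 67.5% at F6, 65.2% at F7, 64.7% at F10, 81.8% at F15, 82.7% at F20, 87.4% at F25 and 85.3% in hrde-1; meg-3 meg-4. The last value includes the raised level of fbxb-14.

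With 1 library left out, members called lower were 20 to 25 at F3, 18 to 22 at F4, 15 to 19 at F5, 14 to 22 at F10, 0 to 1 at F15, 0 at F20 and 15 to 30 for the mean. Called higher were 0 in meg-3 meg-4, 0 to 1 at F4, 0 to 2 at F10, 0 to 1 at F25 and for the mean. In F3 against meg-3 meg-4 the counts were 0 lower and 1 to 3 higher. A group then has a lone library, assumed to vary like the others.

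The replicate numbers were not taken to pair the libraries, since the labels do not say so and not every correlation of deviations was above 0.1. It was in 30 of 66 pairs of groups (-0.08 to 0.47), and in 22 of 36 among the descendants (median 0.14). With the replicate block, 34 slopes rose in place of 33, and lower calls were 28 in place of 27 at F6 and 26 in place of 27 for the mean. Higher calls at F7 went from 0 to 1, and the other counts of called members did not change, among them the 30 lower in meg-3 meg-4. Genes of fewer than 20 normalized counts rest on few reads in the shallow libraries. Shared sequence between members was not run, as no sequence was used here.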
